A study of Mus musculus with 4 samples.

Results

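The respiratory chain and ATP synthase of the mitochondrial inner membrane were represented by 86 nuclear genes of the 27825 gene names on the array. They were chosen by name alone: Nduf, Uqcr and Atp5 genes, Sdha to Sdhd, and genes whose name begins with Cox and a digit from 4 to 8. Each gene was read from its brightest probe by the mean over 4 arrays, of 125 probes in all. The names follow the array's design, and 5 of the 86 genes carry another symbol in RefSeq: Atp5f1 is Atp5pb, Atp5s is Dmac2l, Atp5sl is Dmac2, Cox4nb is Emc8 and Uqcr is Uqcr11. Of these, Dmac2l, Dmac2 and Emc8 are not subunits of the enzymes, and they are counted here as other members by name.

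RNA came from B220 B cells (B220 is the long form of the surface phosphatase CD45 that marks the B lineage), taken fresh from naive mice. The 4 groups were bone marrow of Mef2c KO mice, bone marrow of C57BL/6 mice (wild type, WT), spleen of Mef2c KO mice and spleen of C57BL/6 mice, with 1 single-colour Agilent array each. Mef2c encodes a transcription factor of the MADS box family, known from muscle and lymphocytes. The labels give neither the deleted part of the gene, the promoter of any Cre, the strain background of the KO, the age or sex of the mice, the number pooled for an array, nor the way cells were isolated. No difference within a tissue or genotype therefore has a replicate check or a p-value, and precision is limited by there being 1 array a group. In such bulk samples fewer cells of a type and less RNA per cell cannot be told apart.

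Complex I passes electrons from NADH, and complex II from succinate, to coenzyme Q. Complex III passes them on to cytochrome c and complex IV to oxygen. Complexes I, III and IV pump protons, and ATP synthase uses the returning protons to make ATP. Complex I has core subunits, which carry out catalysis, and accessory subunits, which surround and stabilise them. All complexes other than complex II also contain subunits encoded in mitochondrial DNA, so their assembly draws on 2 genomes. Resting B cells have a modest respiratory rate, which rises when they are activated and divide.

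Neither KO array had a low Mef2c signal by the brighter of its 2 probes, which read 5511 on marrow KO against 4218 on marrow WT and 11839 on spleen KO against 8534 on spleen WT (log2 differences after scaling of 0.32 and 1.36). The dimmer probe gave 0.36 and -0.61. Since a probe outside the deleted part would still be read, these signals do not check the genotype, and KO and WT stand throughout for the arrays labelled so, also where a direction is given.

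By its gene signals the spleen KO array stood apart from the others before any respiratory chain gene was compared. Its 75th percentile of gene signals was 524, against 966 to 1012 on the other arrays, and 59.3% of its gene spots were well above background, against 69.1% to 72.0%. Control spots for added spike-in RNA had medians of 2210 (marrow KO), 1888 (marrow WT), 1223 (spleen KO) and 443 (spleen WT). By these spots it was the spleen WT array that read lowest. Levels below are log2 signals relative to the 75th percentile of the same array, and differences are log2 values. All 9 B cell markers tested, among them Cd79a and Pax5, were well above background on every array. Of the 86 genes, 83 were well above background on all 4 arrays. Cox8c was so on spleen KO only, and Cox7b2 and Cox8b, isoforms known from testis and muscle, on none. In all, 75 of the 86 were among the 5431 brightest detected genes, so these bright genes are given beside all genes. KO samples lay at position 1 and WT samples at position 2 of both slides, and each tissue had its own slide, so position and genotype, and slide and tissue, cannot be told apart.

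The probes of 5 genes that differed at least 2-fold between the spleen arrays are shown next, chosen after their values were seen to span both directions, since the G and C content of a probe moved with the differences reported below. Each is the array's 60-base probe, 5′ to 3′, with G and C in capitals, and coordinates are those of mouse build mm9 in the array files. A span longer than 60 bases crosses an intron.
Ndufs4, chr13:115078980-115079039, 23 G or C: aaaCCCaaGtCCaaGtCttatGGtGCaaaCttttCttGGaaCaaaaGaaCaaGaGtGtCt
Ndufaf2, chr13:108843015-108843074, 27 G or C: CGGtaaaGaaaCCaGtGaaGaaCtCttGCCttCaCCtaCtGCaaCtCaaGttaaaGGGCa
Ndufa3, chr7:3571032-3571091, 26 G or C: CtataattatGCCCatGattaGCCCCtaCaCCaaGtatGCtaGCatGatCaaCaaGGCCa
Cox6b1, chr7:31409575-31411071, 26 G or C: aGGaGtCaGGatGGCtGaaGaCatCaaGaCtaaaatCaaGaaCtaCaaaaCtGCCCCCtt
Atp5k, chr5:108862806-108863061, 36 G or C: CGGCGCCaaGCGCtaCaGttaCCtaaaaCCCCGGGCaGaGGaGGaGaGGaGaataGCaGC
In the spleen the first 2 genes were higher on KO and the last 3 lower. The probes of Ndufaf2, Ndufa3 and Cox6b1 differed by at most 1 G or C. Probes picked by value do not show the trend over all members, which is given below.

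Promoters of these genes are known for sites of the regulators NRF1, ETS factors such as GABP, YY1 and oestrogen-related receptors (ERR). RefSeq promoter windows of 300 bases, 250 before and 50 after the gene start on build GRCm38.p6, were at hand for 71 of the 86 genes. The NRF1 motif GCGCNTGCGC, searched on both strands, lay in the windows of 17 of the 71 (23.9%), against 5.19% of 27025 genes with a window. The ETS motif CCGGAAG lay in 17 (23.9%, against 9.93%), the YY1 motif AAGATGGC in 11 (15.5%, against 3.19%) and the ERR motif AAGGTCA in 8 (11.3%, against 5.38%). At least 1 of these 4 motifs was found for 40 of the 71 genes (56.3%), against 21.1% of all. The motif GGGCGG of SP1 lay in 31 (43.7%, against 38.2%), CCAAT in 32 (45.1%, against 41.1%) and TATAAA in 7 (9.86%, against 15.7%). None of the motifs contains another, although 2 may overlap in 1 window. A match is a description of letters and not a site.

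A subset of 4 promoter stretches with the same NRF1 motif, in capitals, is shown because their genes differed in unlike ways. Each is on the strand of the gene and lies before its start.
Atp5g2, chr15:102671048-102671124, minus strand: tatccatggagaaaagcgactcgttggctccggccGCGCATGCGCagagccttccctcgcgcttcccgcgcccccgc
Atp5k, chr5:108434405-108434484, minus strand: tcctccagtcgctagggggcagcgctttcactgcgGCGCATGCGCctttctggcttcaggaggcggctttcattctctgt
Cox6a1, chr5:115349076-115349155, minus strand: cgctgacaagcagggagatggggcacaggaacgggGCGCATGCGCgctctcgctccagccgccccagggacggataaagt
Ndufa11, chr17:56717667-56717746, plus strand: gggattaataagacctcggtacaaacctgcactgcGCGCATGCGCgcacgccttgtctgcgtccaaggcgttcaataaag
Between the spleen arrays, KO minus WT was -0.12 for Atp5g2, -1.25 for Atp5k, 1.17 for Cox6a1 and -2.16 for Ndufa11. Over all members with a window, the median spleen difference was 0.97 with the NRF1 motif and 0.98 without it. It was 1.23 with and 0.96 without the YY1 motif, and 0.73 with and 1.04 without the ETS motif, which describes these genes and was not tested.

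**Figure D1:**
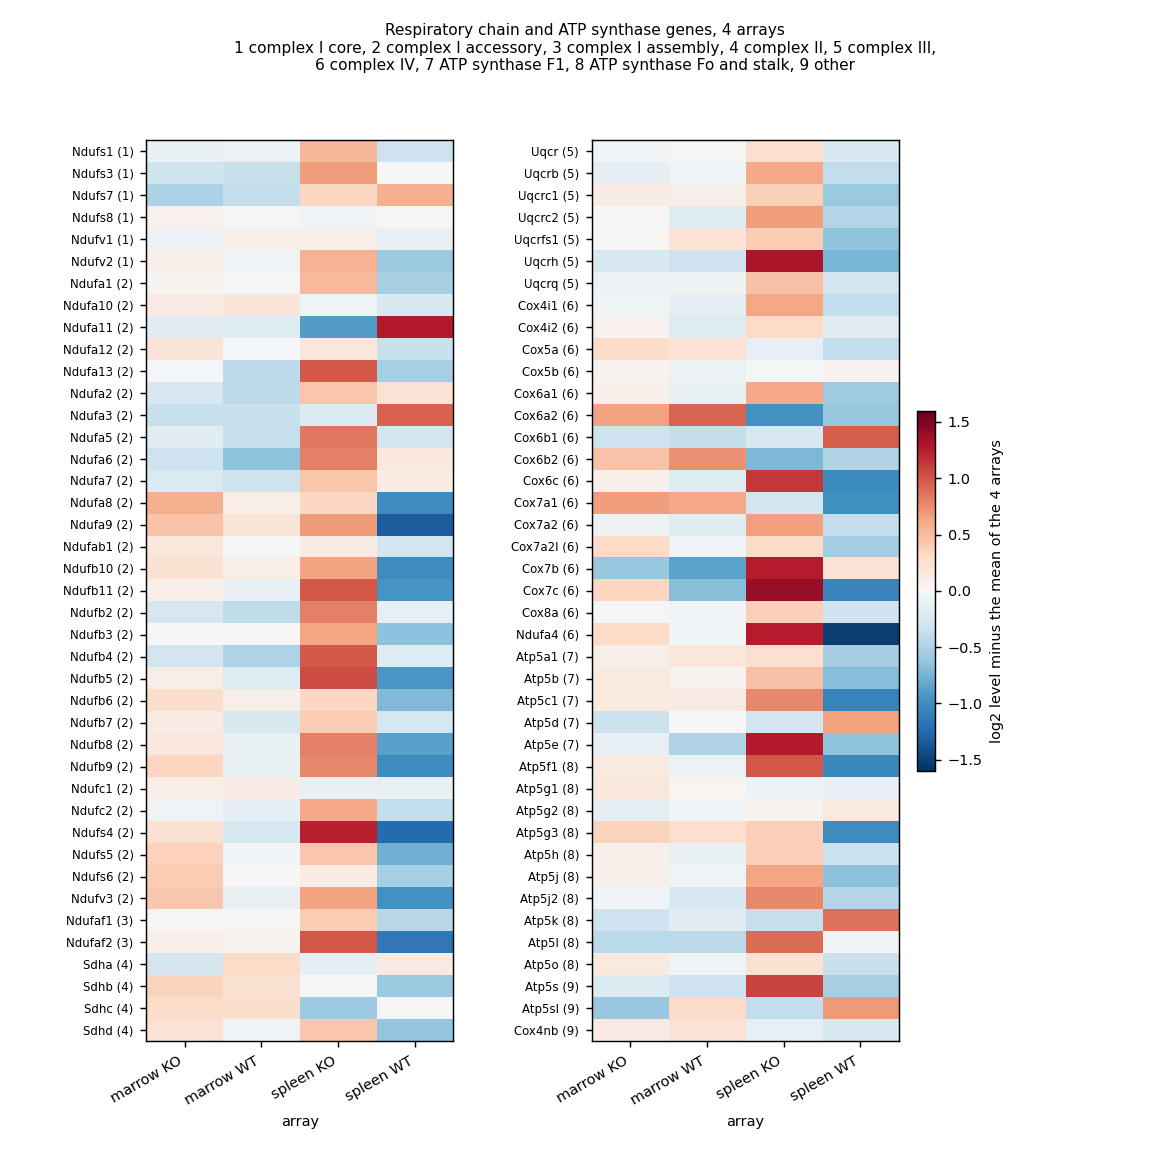
Level of 82 of the 83 genes well above background on all 4 arrays, as the log2 level minus the mean of the 4 arrays (colour, -1.6 to 1.6), with arrays in columns and the code after a gene giving its complex or part as listed in the title. Over the 83 genes, spleen KO held the highest level for 56 and spleen WT the lowest for 58. These counts were not taken over all genes. The bright genes shared the directions, with medians of 0.69 for spleen KO minus WT, and of -0.26 in WT and 0.33 in KO for spleen minus marrow.

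The marrow comparison asked how expression differs between the KO and the C57BL/6 array at the site where B cells form. The marrow arrays lay close together for nearly the whole chain. On KO 1 of 83 measured genes was at least 2-fold higher, where 8.60% of all 20894 measured genes were, and 0 were at least 2-fold lower, against 4.88%. The median difference was 0.11, with the middle 50% of genes between -0.00 and 0.23, beside -0.05 for all genes and 0.03 for the bright genes.

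The gene past 2-fold was Cox7c, a small structural subunit of complex IV, whose level was 3.58 on the KO array and 2.56 on the WT array of the marrow, 1.02 apart. It was between 0.94 and 1.04 under 6 ways of scaling (by the 75th percentile, by the median, quantile normalization, cyclic loess, normexp background correction, and an adjustment for probe G and C content and level), and 3 of the 6 put it past 2-fold. Ndufv3, a small subunit of the NADH-binding arm of complex I, differed by 0.55, but its dimmer RefSeq probes gave -0.13 and -0.40. Ndufs4, an accessory subunit whose loss causes encephalopathy in mice, differed by 0.52. Ndufa8, Ndufb9 and Ndufs5, further accessory subunits, differed by 0.46, 0.45 and 0.42. The 29 accessory subunits of complex I had a median of 0.20 and 26 of them were above 0, while the 7 core subunits had a median of -0.02. Among the 5431 bright genes 2995 were above 0.

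On the low side stood Atp5sl at -0.91, and its second probe at -0.67. Sdha, the catalytic flavoprotein of complex II, had a level of 1.65 on KO against 2.26 on WT, -0.61 apart, and its other probes gave -0.65 and -0.93. Atp5d, a subunit of the central stalk of ATP synthase, differed by -0.36. Cox6a2 and Cox6b2, known as the muscle and testis forms of their subunits, differed by -0.29 and -0.27. Of 28 genes with at least 2 measured probes, 0 had probes over 1 apart, against 12.6% of all such genes. In 9 of the 28, however, probes lay on opposite sides of 0, a count not taken over all genes.

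Between the spleen arrays a large share of the chain was higher on KO. A 2-fold higher level was reached by 39 of 84 measured genes, where 20.8% of 18545 genes reached it, and a 2-fold lower one by 5, against 15.2%. The median difference was 0.94, beside 0.27 for all genes. Bright genes as a whole shared this direction: the 5431 bright genes had a median of 0.69, with 35.1% at least 2-fold higher and 6.28% lower. Among the 75 members of that set the median was 0.999, and 37 were past 2-fold on the high side and 3 on the low side.

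**Figure D2:**
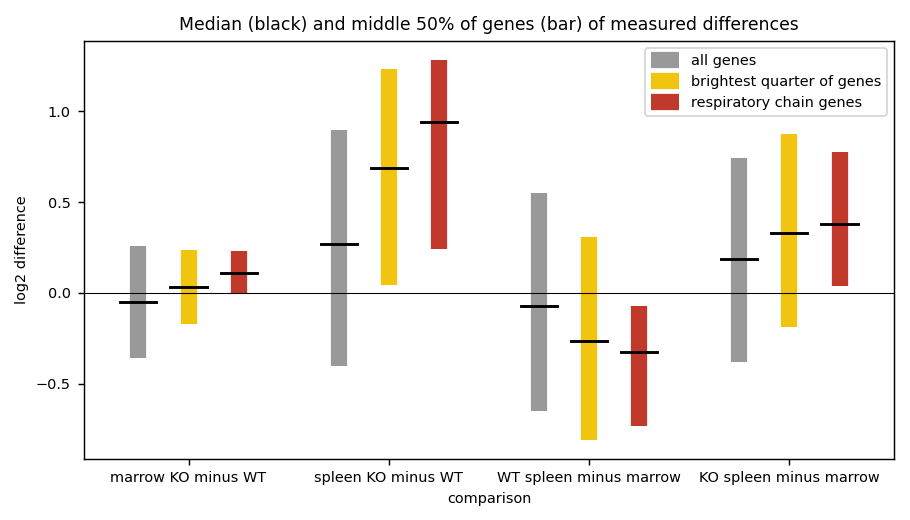
Log2 difference in each of the 4 comparisons for all measured genes (grey), the bright genes (yellow) and the respiratory chain genes (red), bars spanning the middle 50% of genes and black lines marking medians. The spleen KO minus WT median was 0.27, 0.69 and 0.94 in these sets, and the marrow medians lay between -0.05 and 0.11.

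In complex I the accessory subunits led and the core subunits did not. Of 29 accessory subunits 17 were past 2-fold on the high side and 2 on the low side, with a median of 1.05. Ndufs4 had levels of 4.40 (marrow KO), 3.89 (marrow WT), 5.41 (spleen KO) and 2.93 (spleen WT). The spleen arrays thus held both its highest and its lowest level, 2.47 apart (5.56-fold). Ndufa9, an accessory subunit near the quinone site, had levels of 4.20, 3.94, 4.43 and 2.41 in that order, and its spleen difference of 2.02 came with a low WT value. Ndufb5 and Ndufb11, of the membrane arm, differed by 1.97 and 1.95, and Ndufb9, Ndufb8 and Ndufb10 of the same arm by 1.77, 1.68 and 1.65.

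The 7 core subunits had a median of 0.22, and 1 of them, Ndufv2, an iron-sulphur subunit of the NADH-binding arm, was past 2-fold at 1.15. Ndufs1, the large iron-sulphur subunit, differed by 0.86 and Ndufs3 by 0.66. Ndufv1, which binds NADH and flavin, differed by 0.22, Ndufs8 by -0.08 and Ndufs7 by -0.24. Ndufs8 had the smallest spread of all 83 genes over the 4 arrays, with levels of 2.69, 2.59, 2.56 and 2.64. Under this scaling the same core thus held genes that moved with the accessory subunits and genes with nearly the same level on each array.

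Ndufa11, an accessory subunit of the membrane arm that also contacts complex III in supercomplexes, went furthest in the other direction. Its levels were 0.35 (marrow KO), 0.33 (marrow WT), -0.36 (spleen KO) and 1.80 (spleen WT), a spleen difference of -2.16 (4.46-fold lower on KO). A second probe from the same cDNA gave -2.19, but it overlaps the first on the genome and is not an independent reading. Ndufa3, another membrane arm subunit, had levels of 2.59, 2.58, 2.73 and 3.88, so that spleen WT alone stood high, and differed by -1.16. A dimmer cDNA clone probe of Ndufa3 differed by -0.09. Of the 2 assembly factors, Ndufaf2 differed by 2.13, with levels of 1.68, 1.62, 2.57 and 0.43, and Ndufaf1 by 0.84.

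Complex II, the enzyme shared with the citrate cycle, had a median of 0.15 over its 4 genes. The membrane anchor Sdhd was higher by 1.06 and the iron-sulphur subunit Sdhb by 0.59, while the other anchor Sdhc differed by -0.58 and Sdha by -0.30. The 2 anchors form 1 heterodimer and stood on opposite sides of 0. Other Sdha probes gave 0.13 and -1.70, so its direction in the spleen depended on the probe.

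All 7 genes of complex III were above 0 in the spleen, with a median of 0.999 and 3 past 2-fold. Among the 5431 bright genes 4146 were above 0 and 35.1% were at least 2-fold higher. Uqcrh, the hinge protein that helps cytochrome c dock, had levels of 6.84 (marrow KO), 6.75 (marrow WT), 8.39 (spleen KO) and 6.35 (spleen WT). Its spleen difference was 2.04, and a second probe gave 2.24. By their brightest probes both core proteins and the Rieske protein lay close together: Uqcrc2 at 1.14, Uqcrc1 at 0.97 and Uqcrfs1 at 1.04. A dimmer RefSeq probe of Uqcrc1 gave 0.37. Uqcr, at 0.52, was the lowest of the 7.

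In complex IV 8 of 17 measured genes passed 2-fold upwards and 1 downwards on KO, and the 16 measured on both arrays had a median of 0.78. Ndufa4, first described with complex I and now placed in complex IV, had levels of 5.14 (marrow KO), 4.80 (marrow WT), 6.10 (spleen KO) and 3.33 (spleen WT). Its spleen difference of 2.77 (6.81-fold) was the largest of all members, and here too the marrow arrays lay between the spleen arrays. Cox7c had levels of 3.58, 2.56, 4.62 and 2.18, a spleen difference of 2.44, and both KO arrays lay above both WT arrays. Cox6c, a small subunit of the membrane part, had levels of 5.94, 5.66, 6.99 and 4.84, a spleen difference of 2.15.

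Other subunits of complex IV lay on both sides of 0. Cox4i1 differed by 1.02, Cox5a by 0.26 and Cox5b by -0.08, and Cox5b kept levels between 5.39 and 5.55 on the 4 arrays. Cox6b1, which faces the cytochrome c side, had levels of 0.82, 0.78, 0.90 and 2.12, a spleen difference of -1.22 with spleen WT alone high. Cox8c, a form known from testis, had signals of 10.55 (marrow KO), 3.18 (marrow WT), 49.1 (spleen KO) and 4.11 (spleen WT). It was not well above background on 3 of the arrays, and spleen KO was at least 4.70-fold above spleen WT, where the value taken for spleen WT was the lowest one well above background there, or the probe's own if higher.

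In the F1 part of ATP synthase, which makes ATP, 3 of 5 genes were past 2-fold, with a median of 1.16. The subunits Atp5e and Atp5c1 of the central stalk differed by 1.92 and 1.84, the catalytic Atp5b by 1.16 and Atp5a1 by 0.82. Dimmer RefSeq probes of Atp5b gave 0.72 and 0.25, short of 2-fold, and one of Atp5a1 gave 0.35. Atp5d, of the same central stalk, differed by -0.95, with levels of 2.86, 3.22, 2.91 and 3.86. Members of 1 stalk therefore lay over 2 apart on the log2 scale.

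In the membrane part and outer stalk 4 of 10 genes were past 2-fold on the high side and 1 on the low side, with a median of 0.83. Atp5f1, the main outer stalk subunit, differed by 2.02, with levels of 5.92, 5.67, 6.76 and 4.74. A second probe gave 1.41, and a dim cDNA clone probe -0.95. The 3 genes for the same mature c subunit of the rotor ring differed unequally: Atp5g3 by 1.38, Atp5g1 by 0.05 and Atp5g2 by -0.12. Their probes had 35%, 55% and 53.3% G and C in that order. The spleen median of the bright genes was 0.91 below 40% G and C and 0.085 from 50% up. The part of G and C content in the contrast of these 3 genes was not tested. Atp5k, a small membrane subunit, had levels of 2.24, 2.39, 2.20 and 3.45, a difference of -1.25, and as with Ndufa3 and Cox6b1 spleen WT alone stood high. Among the other members by name, Atp5s differed by 1.62 and Atp5sl by -1.08. Their dimmer RefSeq probes gave 0.85 and -1.27.

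**Figure D3:**
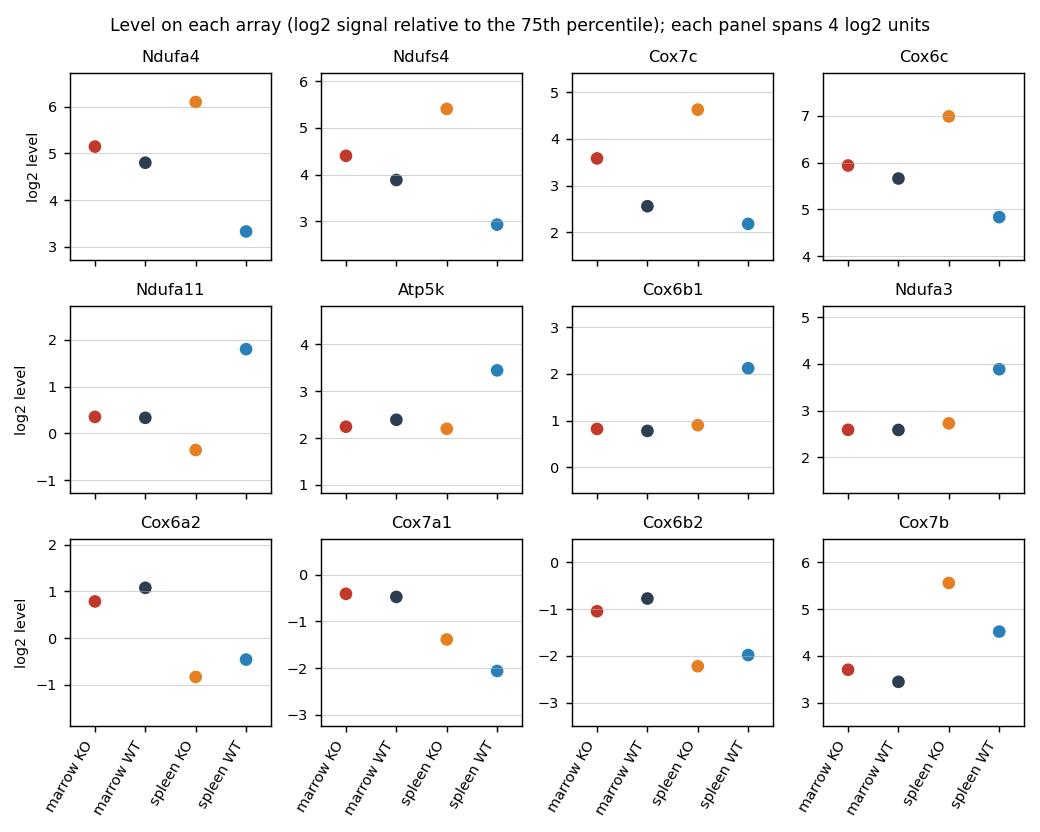
Log2 level on each of the 4 arrays (1 point each) for the 4 genes with the largest measured spleen differences (top row), 4 that were lower on spleen KO (middle row) and 4 with a tissue difference (bottom row), each panel spanning the same range. In the top row the marrow points lie between spleen KO and spleen WT, and for Atp5k, Cox6b1 and Ndufa3 spleen WT alone stands high.

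**Figure D4:**
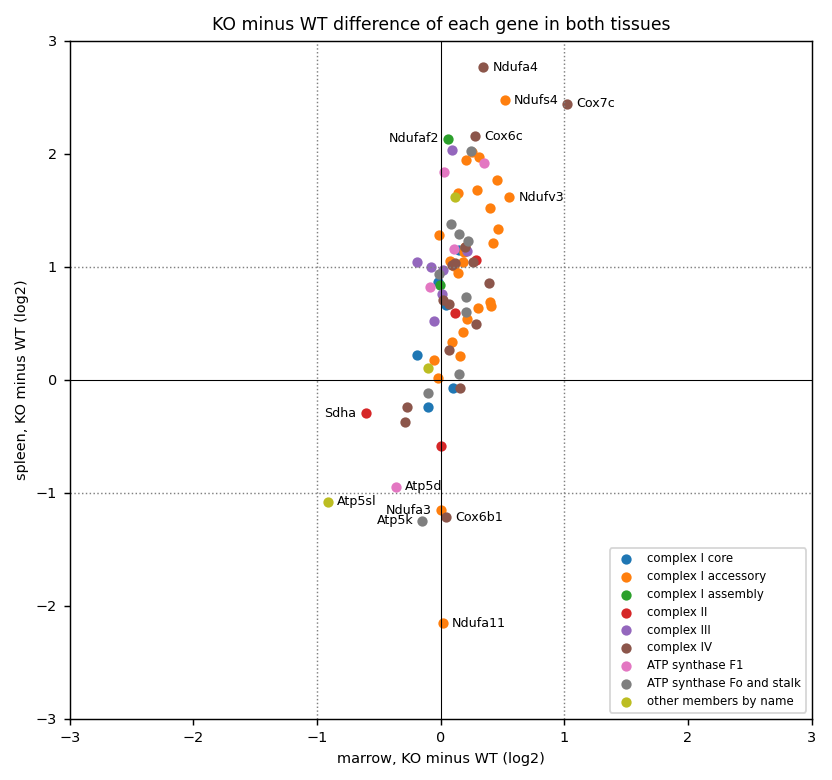
KO minus WT difference of the same 82 genes in the marrow (horizontal axis) and the spleen (vertical axis), log2, coloured by complex, with dotted lines at 2-fold. Points spread from -2.16 to 2.77 along the spleen axis and from -0.91 to 1.02 along the marrow axis.

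The processing set how many spleen differences passed 2-fold. With 39 higher and 5 lower in the setting above, scaling by the median gave 57 and 1, and normexp background correction 34 and 5. Quantile normalization gave 15 and 7, cyclic loess 10 and 10, and an adjustment for probe G and C content and level, added after the data were seen, 13 and 6. Over the last 3 settings the members' median was between 0.078 and 0.22. A set of 9 genes was at least 2-fold higher in all 6 scalings: Ndufa4, Ndufs4, Cox7c, Cox6c, Ndufaf2, Ndufa9, Ndufb5, Ndufv3 and Cox8c. Of these Cox8c was well above background on spleen KO only, so it could enter only as higher. Ndufa11 was at least 2-fold lower in all 6, from -2.32 to -1.72. Ndufa4 ranged from 1.67 to 3.19 over them, Ndufaf2 from 1.77 to 2.56 and Cox7c from 1.39 to 2.87. Of the 84 genes 46 kept their sign in all 6. The shares of all genes that did the same over the 6 scalings were not counted, here or in the tissue comparisons below.

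**Figure D5:**
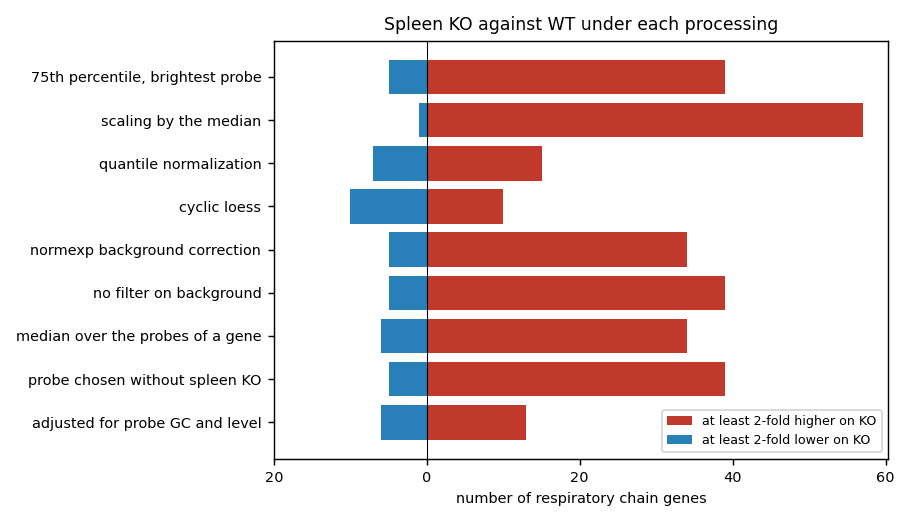
Number of respiratory chain genes at least 2-fold higher (red, to the right) or lower (blue, to the left) on spleen KO than on spleen WT under each processing. Counts of higher genes run from 10 with cyclic loess to 57 with scaling by the median.

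Probes of 1 gene disagreed in the spleen. Of 27 members with at least 2 measured probes 10 had probes over 1 apart, 37.0%, against 49.5% of all such genes. The 2 dimmer RefSeq probes of Ndufv3 gave -0.77 and -0.66 where the brightest gave 1.62, and a cDNA clone probe of Atp5j2 gave -2.11 where the brightest gave 1.23. A second RefSeq probe of Ndufc1 gave -1.27 beside 0.01, and one of Cox4nb -2.46 beside 0.10. A cDNA clone probe of Ndufv2 gave -1.14 beside 1.15, and for Ndufb2 and Ndufb8 such probes gave 2.03 beside 0.95 and 0.47 beside 1.68. Ndufa4, Ndufs4, Cox7c, Cox6c, Ndufaf2, Ndufa9, Ndufb5 and Cox8c have no second measured probe in the comparison. Of the genes at least 2-fold higher in all 6 scalings, only Ndufv3 therefore has one.

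The spleen difference moved with the probe's G and C content. Its correlation with that content was -0.39 across 83 members, -0.19 across 16458 genes and -0.32 across the bright genes, where genes share arrays and are not independent replicates. The median of the members was 1.15 below 40% G and C and 0.37 from 50% up, beside 0.52 and -0.07 for all genes. It also moved with level, by a correlation of 0.42 in the members and 0.24 in all genes. The part of these properties in the spleen difference was not tested beyond the adjustment above.

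The comparison of the WT arrays asked how B220 cells of the spleen differ from those of the marrow in C57BL/6 mice. Most of the chain was somewhat lower in the spleen, and a few named genes stood out. A 2-fold higher spleen level was reached by 5 of 83 measured genes, where 15.6% of 20880 genes reached it, and a 2-fold lower one by 10, against 16.0%. The median was -0.33, beside -0.07 for all genes and -0.26 for the bright genes. All 7 genes of complex III and all 4 of complex II were below 0, with medians of -0.33 and -0.43, and the F1 part of ATP synthase had a median of -0.73. Among the 5431 bright genes 3371 were below 0.

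Lowest were Cox7a1 and Cox6a2, known as the forms of their subunits in heart and skeletal muscle, at -1.58 and -1.53. Ndufa9 differed by -1.53, Ndufa4 by -1.47, Atp5g3 by -1.27, Atp5c1 by -1.21, Cox6b2 by -1.21 and Ndufaf2 by -1.19, and Ndufa8 and Ndufb10 by -1.12 and -1.11. Highest were Ndufa11 at 1.47, Cox6b1 at 1.34, Ndufa3 at 1.30, Cox7b at 1.07 and Atp5k at 1.06, and next came the core subunit Ndufs7 at 0.97. Of these Ndufa11, Cox6b1 and Ndufa3 were at least 2-fold higher, and Cox6a2, Cox7a1, Ndufa9 and Ndufaf2 lower, in all 6 scalings. The split of 5 higher and 10 lower became 3 and 18 with scaling by the median, 7 and 8 with quantile normalization, 8 and 6 with cyclic loess and 5 and 5 with the adjustment for G and C content and level.

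Between the KO arrays the chain was on balance higher in the spleen. A 2-fold higher level was reached by 14 of 84 measured genes, where 16.8% of 18566 genes reached it, and a 2-fold lower one by 2, against 15.3%. The share that was higher, 16.7%, was near that of all genes. The median was 0.38, beside 0.19 for all genes and 0.33 for the bright genes, and it was 0.012 with quantile normalization, -0.098 with cyclic loess and -0.051 with the adjustment for G and C content and level. The split of 14 and 2 became 22 and 1 with scaling by the median, 3 and 1 with quantile normalization, 3 and 5 with cyclic loess, 9 and 1 with normexp and 3 and 2 with that adjustment.

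Cox7b, Cox8c and Atp5s were at least 2-fold higher and Cox6a2 lower in all 6 scalings of this comparison. A dimmer RefSeq probe of Atp5s gave 0.72 where the brightest gave 1.30. Cox8c entered only as a lower bound, being well above background on spleen KO alone. Uqcrh differed by 1.54, Atp5e by 1.40 and Atp5l, a small membrane subunit of ATP synthase, by 1.33. Sdhc differed by -0.87, Ndufa11 by -0.71 and Cox5a by -0.42. This comparison and that of the WT arrays share no array. In 11 of 83 genes they had opposite signs with at least 1.5-fold in each, against 5.46% of 18181 genes and 7.51% of the bright genes. These counts were taken only under the scaling used for the levels, and the difference between genotypes was not tested. The comparison of the spleen arrays shares spleen KO with the one and spleen WT with the other, and the values are set side by side for that reason.

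Of the tissue isoforms of complex IV, Cox6a2, Cox7a1 and Cox6b2 were lower on the spleen array in both genotypes. Cox6a2 had levels of 0.78 (marrow KO), 1.08 (marrow WT), -0.83 (spleen KO) and -0.46 (spleen WT), spleen minus marrow of -1.53 in WT and -1.61 in KO. Both marrow arrays lay above both spleen arrays, and in each of the 6 scalings the difference was past 2-fold in both genotypes. Cox7a1 had levels of -0.41, -0.48, -1.39 and -2.06, a difference of -1.58 in WT and -0.98 in KO. Cox6b2 had levels of -1.05, -0.77, -2.22 and -1.98, a difference of -1.21 in WT and -1.18 in KO. In each of these both marrow arrays lay above both spleen arrays. The share of all genes whose tissues separate in this way was not counted.

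The widely expressed partners of these isoforms had other values. Cox6a1 differed by -0.45 in WT and 0.52 in KO, Cox7a2 by -0.18 and 0.74, Cox7a2l, a supercomplex factor, by -0.49 and -0.02, and Cox6b1 by 1.34 and 0.08. Cox4i2, a lung and hypoxia form, had signals of 19.96 to 32.6 and differed by 0.03 and 0.24, and its partner Cox4i1 by -0.25 and 0.68. Cox8a differed by -0.28 and 0.41. Cox7b, an X-linked gene, ran the other way, with levels of 3.70 (marrow KO), 3.44 (marrow WT), 5.56 (spleen KO) and 4.52 (spleen WT), a difference of 1.07 in WT and 1.86 in KO.

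The only test the design allows took both tissues as repeats of 1 genotype effect and both genotypes as repeats of 1 tissue effect, in limma's fit to all 4 arrays. For genotype, 0 of 84 members passed an adjusted p of 0.05, where 0.00921% of 21724 genes did (2 genes), and 4 members, all higher on KO, had an unadjusted p under 0.05, against 10.7% of all genes. They were Cox8c, Cox7c at 1.73 (SE 0.575, limma adjusted p = 0.383), Ndufs4 at 1.496 (SE 0.619) and Ndufa4 at 1.56 (SE 0.666). The fit of Cox8c, with the lowest adjusted p of the members (limma, 0.259), rests on 3 arrays where it was not well above background. With normexp correction 3 members passed, Cox7c, Ndufa4 and Ndufs4, where 2.93% of all genes did. With scaling by the median or with no filter 1 passed, Cox8c, where 2.05% and 2.12% of all genes did, so these member counts were near or below the share of all genes.

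For tissue, 0 of 84 members passed, where 7.44% of genes did, and 5 had an unadjusted p under 0.05 (2 higher and 3 lower in the spleen), against 20.1% of all genes. Cox6a2 differed by -1.57 (SE 0.521, limma adjusted p = 0.119), Cox7b by 1.47 (SE 0.538, limma adjusted p = 0.161), Cox7a1 by -1.28 and Cox6b2 by -1.19. With normexp correction Cox6a2 and Cox7b passed, where 10.8% of all genes did, and with an intensity trend in the fit Cox6a2 did, where 11.6% of all genes did.

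Other genes of the pathway were listed beside the members, and their counts stand against 20.8% of all genes higher and 15.2% lower between the spleen arrays, and 35.1% and 6.28% of the bright genes. On spleen KO against spleen WT, 8 of 24 further respiratory chain and assembly genes passed 2-fold on the high side and 2 on the low side (33.3% and 8.33%, median 0.69), which is near the bright genes. Cycs, which encodes cytochrome c, had signals of 29725 (marrow KO), 26587 (marrow WT), 28083 (spleen KO) and 10300 (spleen WT), a spleen difference of 2.34, and its other probes gave 1.76 and 1.71. The complex I assembly factor Nubpl differed by 1.79, with other probes at 0.60 and -0.95, and the ATP synthase assembly gene Tmem70 by 1.54. Cox17, a copper chaperone for complex IV, had its brightest probe at -2.68 in the marrow and -4.99 in the spleen. That probe has 78.3% G and C and comes from a cDNA end sequence, and the RefSeq probe of Cox17 gave 0.25 and 0.91, so the direction depended on the probe in both tissues.

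The 2 mitochondrially encoded genes with a probe, CYTB of complex III and COX2 of complex IV, stood on opposite sides of 0 between the spleen arrays. CYTB had signals of 93760, 101114, 96946 and 242890 on marrow KO, marrow WT, spleen KO and spleen WT, a spleen difference of -0.43. COX2 had 247669, 251335, 245799 and 335333, a spleen difference of 0.44. Spleen minus marrow was 1.25 in WT and 0.998 in KO for CYTB, and 0.41 and 0.94 for COX2, where the nuclear members had medians of -0.33 and 0.38.

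Among 13 regulators of mitochondrial biogenesis, spleen KO was past 2-fold above spleen WT for 4 and below it for 1 (30.8% and 7.69%), with a median of 0.31 near the 0.27 of all genes. Tfam, which packages and transcribes mitochondrial DNA, differed by 1.99, with other probes at 0.55 and, for 1 of 78.3% G and C, -2.76. Myc differed by 1.40, with other probes at 0.65 and 0.09, and Tfb2m, a mitochondrial transcription factor, by 1.33, with another at 0.70. The coactivator gene Ppargc1b differed by -1.65, with signals of 253 (marrow KO), 344 (marrow WT), 245 (spleen KO) and 1428 (spleen WT), where spleen WT alone was high, and its other probes gave -0.20 and -2.48. Nrf1 differed by -0.31 and was lower in the spleen in both genotypes, by -1.48 in WT and -1.12 in KO.

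Of 16 citrate cycle genes 5 were higher and 1 lower on spleen KO by 2-fold (31.3% and 6.25%), with a median of 0.67, again near the bright genes. Suclg1, of succinyl-CoA synthetase, differed by 1.85 and Dld by 1.34 (other probes 1.40 and -0.39), and Ogdh, of 2-oxoglutarate dehydrogenase, by -1.57. Ogdh was also lower on marrow KO, by -1.36, and a second probe gave -1.28 and -1.59 in marrow and spleen. Carriers and protein import had 9 of 16 genes higher and 1 lower (56.3% and 6.25%, median 1.12), led by Tomm70a at 1.88 and Tomm20 at 1.78, while Tomm40 differed by -2.91. For coenzyme Q synthesis 2 of 9 measured genes were higher and 1 lower (22.2% and 11.1%), and the median was 0.42.

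Glycolysis, which makes ATP without oxygen, had 3 of 16 genes higher and 3 lower on spleen KO (18.8% each), near the shares of all genes, with a median of 0.26. Hk2, a hexokinase, was higher on KO in both tissues, by 1.61 in the marrow and 2.59 in the spleen. Eno1 differed by -3.54, Pkm2 by -1.69 (other probes -0.78 and -1.18) and Gapdh by -1.32 in the spleen. In the marrow 2 of 16 glycolytic genes were at least 2-fold higher on KO (12.5%, against 8.60% of all genes) and 0 lower, with a median of 0.33. Between the KO tissues 1 was higher and 5 lower in the spleen (6.25% and 31.3%, against 16.8% and 15.3% of all genes), with a median of -0.59.

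Markers of other cell types differed between the arrays that were compared. All 8 neutrophil markers were well above background on each array, with a summed signal over the 75th percentile of 1397 (marrow KO), 434 (marrow WT), 144 (spleen KO) and 11.0 (spleen WT). Of 7 erythroid markers 6 were well above background on each array, and the list summed to 19.8, 29.9, 166 and 24.7 in that order, highest on spleen KO. For 8 macrophage markers it was 16.4, 19.0, 129 and 51.7, with 4 of the 8 at least 2-fold higher and 1 lower on spleen KO than on spleen WT and 3 below 0 (median 0.57). For 4 plasma cell markers it was 2.19, 4.53, 11.7 and 49.7. The 9 B cell markers summed to 482, 544, 1194 and 712, but did not move together. Between the spleen arrays 3 of the 9 were at least 2-fold higher on KO and 4 lower, among them Cd79a at -2.47 and Pax5 at -1.27, and in the marrow 7 of 9 were below 0 and 3 at least 2-fold lower on KO. Sums of T and NK cell markers lay between 4.0 and 6.42 and between 1.33 and 3.99. Stromal markers summed to 34.9 and 10.4 on the marrow arrays and to 0.448 and 0.483 on the spleen arrays. Platelet markers summed to 14.7, 4.42, 0.754 and 0.559 in the order above. Both lists were lower in the spleen, as the neutrophil list was, and both were higher on marrow KO than on marrow WT. Of these lists Pdgfra was not well above background on either spleen array and Itga2b not on spleen KO. The part of any of these cell types in the respiratory chain differences was not tested.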

How the data were processed

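RNA of B220 B cells was measured on 4 Agilent single-colour arrays, 1 per combination of tissue and genotype, and groups came from the labels. The deposited scanner files hold linear intensity values from Agilent Feature Extraction, version 10.5.1.1, per the file headers, with background correction but no scaling between arrays recorded, and probes placed on build mm9. The deposited series matrix equalled these intensity values at all 45018 spots of each array (tolerance 0), so it is linear and uncentred, with column medians of 85.4, 82.7, 37.9 and 93.0 for marrow KO, marrow WT, spleen KO and spleen WT. 0 columns belonged to no sample.

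Control spots and 72 to 85 outlier spots per array were left out, and 0 spots were saturated. Signals were taken to log2, scaled by each array's 75th percentile, and averaged over repeated spots. Repeated spots had a median SD of 0.0639 to 0.0780, which covers spotting only. A gene was measured when well above background on at least 1 of the 2 arrays compared. A gene well above on 1 array only entered as a lower bound, and medians use genes well above on both. Gene names are those of the files, as the choice of members requires, and 85 of 86 members matched RefSeq by accession and 1 by symbol.

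The test was limma 3.58.1 (R 4.3.3) with tissue and genotype as terms, 1 residual degree of freedom and Benjamini-Hochberg adjustment over 21724 genes, checked on simulated data. Its p-values measure only the spread between these arrays. Nothing says whether tissues came from separate animals. Tables were handled in Python 3.11.15. Alternatives were 3 other scalings, normexp with offset 50, no filter, other probe rules, a 1.5-fold threshold, an intensity trend and an adjustment for 5 classes of G and C content and 10 of level, the last added after the data were seen.

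Members, lists and tests were chosen with earlier results of these data known. Genes named are, per comparison, the 6 highest and 6 lowest members, fixed core subunits and isoform groups, members whose probes disagree, and up to 4 genes per other list with the largest differences. A few further members and list genes were named after their values were seen. A further member that this rule names is counted in the totals but not reported here.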

Additional observations from a re-analysis of the deposited data

Results flagged for a closer look

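Under the scaling used for the levels, spleen minus marrow had opposite signs in WT and KO in 11 of 83 genes (13.3%), with at least 1.5-fold in each. The shares were 5.46% of 18181 genes and 7.51% of the bright genes. These counts were not taken under the other scalings, and they may depend on the scaling. With cyclic loess the members' WT median of -0.33 became -0.028, and their KO median changed sign. Whether the genotypes differ was not tested, since 1 array per group leaves no error for it. Lower in the WT spleen and higher in the KO spleen were Ndufa4 (-1.47 and 0.95), Atp5c1 (-1.21 and 0.61), Ndufaf2 (-1.19 and 0.88), Ndufs4 (-0.95 and 1.0), Atp5f1 (-0.94 and 0.85) and Cox6c (-0.83 and 1.05). The same held for the complex I membrane arm genes Ndufb11 (-0.83 and 0.92), Ndufb8 (-0.76 and 0.63), Ndufb5 (-0.72 and 0.94) and Ndufb3 (-0.67 and 0.62). Ndufa11 ran the other way, at 1.47 in WT and -0.71 in KO. The marrow differences of these genes, KO minus WT, lay between -0.01 for Ndufb3 and 0.52 for Ndufs4.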

How the results depend on the processing

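No paired analysis was possible because each group has 1 array and the labels carry no replicate numbers. In the marrow the count of higher genes, 1, became 0 with quantile normalization, cyclic loess or the G and C adjustment and 2 without the filter, and that of lower genes, 0, became 1 with the median over probes and 2 at 1.5-fold. The spleen KO minus WT median of 0.94 became 1.36 with scaling by the median, 0.22 with quantile normalization, 0.094 with cyclic loess, 0.81 with the median over probes and 0.078 with the adjustment. Its 39 higher genes became 15, 10 and 13 with quantile normalization, cyclic loess and the adjustment, and its 5 lower genes 1 with scaling by the median and 10 with cyclic loess. All genes together shifted too: their spleen median of 0.27 became 0.70 with scaling by the median, and the share of higher among called genes, 57.9%, became 80.0% there, 69.8% with normexp, 46.7% with the median over probes and 40.8% with the adjustment. The WT spleen minus marrow median of -0.33 became -0.51 with scaling by the median, -0.15 with quantile normalization, -0.028 with cyclic loess and -0.095 with the adjustment. Its 5 higher genes became 3 with scaling by the median, 8 with cyclic loess and 9 at 1.5-fold, and its 10 lower genes 18, 6 and 28 in these and 5 with the adjustment. The KO spleen minus marrow median of 0.38 became 0.61 with scaling by the median, 0.012 with quantile normalization, and reversed to -0.098 with cyclic loess and -0.051 with the adjustment. Its 14 higher genes became 22 with scaling by the median, 3 with quantile normalization, cyclic loess or the adjustment, 9 with normexp and 33 at 1.5-fold, and its 2 lower genes became 1 with scaling by the median, quantile normalization or normexp, 5 with cyclic loess or at 1.5-fold and 4 with the median over probes. In limma's fit 0 members for genotype became 1 with scaling by the median or no filter and 3 with normexp, and 0 for tissue became 2 with normexp and 1 with the trend. Of the named spleen differences of at least 2-fold, those that changed sign were Atp5b (-0.075), Cox4i1 (-0.15) and Cox6a1 (-0.20) with cyclic loess, Atp5j2 (-0.44) and Ndufv3 (-0.77) with the median over probes, and Cox7b (-0.053) with the adjustment. Smaller differences that changed sign, such as Cox4nb (0.10 to -1.18 with the median over probes), are counted as moved. Of 1840 values of named genes under other settings, 1095 stayed within the spread of repeated spots, 739 moved further and 6 were these changes of sign. The cause of these changes was not tested. Signal over background limits Cox8c, Cox7b2 and Cox8b, and 1 array per group limits all values.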
